A study of Homo sapiens with 16 samples.

Results

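HMGA2, a chromatin protein, and BMP7, a secreted bone morphogenetic protein, are 2 of the 30 genes named in a table of Gene Ontology (GO) biological process terms for HCC1954 brain metastases. They were chosen by name, after earlier results of the same table had shown them together in its mesenchymal terms. Their term counts, partners, folds and p-values are therefore a description and carry no test. All the listed terms had an unadjusted p under 0.1, and HMGA2 or BMP7 was in 12 of 37 of them (32.4%).

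Mice were injected with brain-metastatic derivatives of HCC1954, a breast cancer line with ERBB2 amplified, or MDA231, a triple-negative line, and the tumours grew for 30 days in the brain. The 16 libraries form 4 groups, HCC1954 input, HCC1954 IP, MDA231 input and MDA231 IP, with 4 libraries in each. All the mice received 5-fluorocytosine at 250 mg/kg, 12 hours before the brain was taken. IP libraries hold RNA recovered by an anti-BrdU antibody (Flura-seq, in which fluorouracil made from 5-fluorocytosine tags new RNA). The mouse strain, age and sex, and how the injected cells came to convert 5-fluorocytosine are not stated in those sources that were used here. Each line is 1 derivative and its host brain is mouse tissue. Neither table gives a level per library, so the spread between brains is unknown, and no source used here says whether a listed gene was higher or lower in the IP RNA.

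HMGA2 bends DNA at AT-rich stretches and helps other transcription factors to bind. It is abundant in embryonic and mesenchymal cells, scarce in most adult tissues, and returns in many tumours, and the let-7 microRNAs repress it. BMP7 is a ligand of the TGF-beta superfamily that signals through pairs of serine/threonine kinase receptors to SMAD proteins. It drives bone and kidney development, and in several epithelia it opposes the transition to a mesenchymal state that TGF-beta promotes. A GO term that is not named positive or negative regulation gives no sign. Such a term can hold genes that drive a process beside genes that oppose it.

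HMGA2 (ENSG00000149948) lies on GRCh38 chromosome 12, 65824131 to 65966295, on the plus strand. BMP7 (ENSG00000101144) lies on chromosome 20, 57168748 to 57266629, on the minus strand. GENCODE release 29 gives HMGA2 11 transcripts, 7 of them coding, and BMP7 9 transcripts, 4 of them coding. There, 3 genes on the opposite strand overlap HMGA2, namely RPSAP52, AC090673.1 and AC090673.2, AC107308.1 lies inside it on the same strand, and BMP7-AS1 overlaps BMP7 on the opposite strand. No source used here says whether reads were counted by strand, so reads within the overlaps cannot be assigned to HMGA2 or BMP7 with certainty.

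The authors' HCC1954 list held 88 genes, 66 of them with a biological process, against a background of 16792 genes. An adjusted p under 0.05 was reached by 0 HCC1954 terms (0% of the 707 tested), while 25 had an unadjusted p under 0.05. These 25 are 3.54% of the tested and 67.6% of the listed terms. Of the 12 terms with HMGA2 or BMP7, the authors' deposited table gives 6 (50%) an unadjusted p under 0.05, and none of the 12 passed an adjusted p of 0.05. Their adjusted p-values ran from 0.830 to 0.934 in the authors' deposited table.

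HMGA2 was in 8 HCC1954 terms and BMP7 in 7, the fourth and the fifth highest numbers among the 30 named genes after TGFB1, GAS6 and AXL. They shared 3 terms, HMGA2 had 5 without BMP7, and BMP7 had 4 without HMGA2. The 3 shared terms are a share of 37.5% of those naming HMGA2 and 42.9% of those naming BMP7. The authors' deposited table gives all 3 shared terms an unadjusted p under 0.05, against 2 of the 5 with HMGA2 alone and 1 of the 4 with BMP7 alone. Of all 37 listed terms 67.6% had one, and of the 25 with neither gene 19 did (76%). The contrast rests on few terms chosen by name and was not tested.

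**Figure D1:**
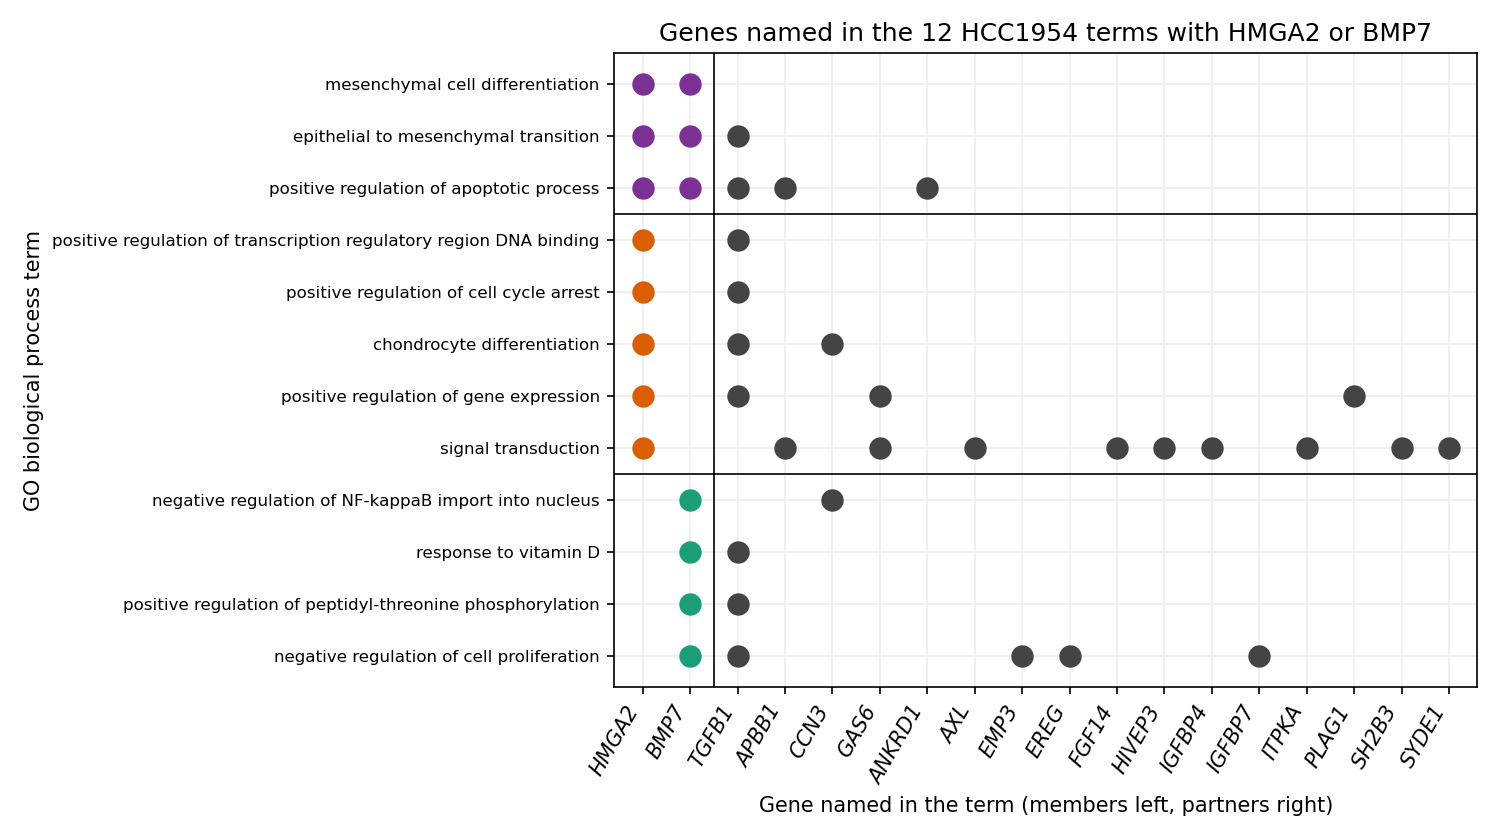
Genes (columns) named in each of the 12 HCC1954 terms (rows) that hold HMGA2 or BMP7, with a dot for each named gene. The top 3 rows hold both members, the middle 5 HMGA2 and the bottom 4 BMP7, and TGFB1 has a dot in 9 of the 12 rows.

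Mesenchymal cell differentiation was the single listed term made of HMGA2 and BMP7 alone. They were 2 of its 8 background genes, and the authors' deposited table gives a fold of 63.6, an unadjusted p of 0.0306 and an adjusted p of 0.864. The 95% exact binomial interval of that fold, computed from the counts, ran from 7.75 to 221. No other of the 12 terms had a higher fold. Positive regulation of natural killer cell differentiation, made of AXL and GAS6 alone, had the same fold, and the highest of all 37 was 169.6. With 1 listed gene fewer, mesenchymal cell differentiation would keep 1 gene and a fold of 32.3. In epithelial to mesenchymal transition HMGA2 and BMP7 stood with TGFB1, the cytokine transforming growth factor beta 1. The term ranked second of 37 by p, with 3 of 34 background genes, and its fold was 22.4 per the authors' deposited table (interval 4.68 to 62.8). With any 1 of the 3 genes left out of the list and background, the fold was 15.7, whichever gene it was.

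The third shared term was broader and of another kind. Positive regulation of apoptotic process joined HMGA2 and BMP7 with TGFB1, the ankyrin-repeat protein gene ANKRD1 and APBB1, an adaptor of the amyloid precursor protein. These were 5 of 300 background genes, with a fold of 4.24 (interval 1.40 to 9.40) and an unadjusted p of 0.0289 per the authors' deposited table. The shared terms thus ran from 8 to 300 background genes, and the fold fell as the term grew.

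Of the 5 terms with HMGA2 and not BMP7, 4 concerned cartilage, the cell cycle and gene regulation, and the other was signal transduction. Chondrocyte differentiation held HMGA2, TGFB1 and the matricellular protein gene CCN3, which were 3 of 39 background genes (unadjusted p = 0.00997 in the authors' deposited table). HMGA2 and TGFB1 alone made up the term for positive regulation of DNA binding at transcription regulatory regions, 2 of 15 genes, with fold 33.9 and unadjusted p = 0.0565 per the authors' deposited table. The same pair made up positive regulation of cell cycle arrest, 2 of 25 genes, with fold 20.4 and unadjusted p = 0.0925 per the authors' deposited table. Positive regulation of gene expression added GAS6, the ligand of the receptor AXL, and PLAG1, a zinc finger transcription factor, to HMGA2 and TGFB1 (4 of 262 genes, with fold 3.88 and unadjusted p = 0.0811 per the authors' deposited table).

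Signal transduction, the broadest listed term, named HMGA2 but neither BMP7 nor TGFB1. It held 10 of 1161 background genes, and of all 37 terms the authors' deposited table gives it the lowest fold, 2.19 (interval 1.09 to 3.78). Of the 16 genes that stood beside HMGA2 or BMP7, 7 did so through signal transduction alone: AXL, FGF14, HIVEP3, IGFBP4, ITPKA, SH2B3 and SYDE1.

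The 4 terms with BMP7 and not HMGA2 concerned growth restraint, vitamin D and signalling. Negative regulation of NF-kappaB import into nucleus held BMP7 and CCN3, 2 of 11 background genes, with fold 46.3 (interval 5.63 to 161) and unadjusted p = 0.0418 per the authors' deposited table. It was the sole term with BMP7 that lacked both HMGA2 and TGFB1. Response to vitamin D held BMP7 and TGFB1, 2 of 18 genes, with fold 28.3 and unadjusted p = 0.0675 per the authors' deposited table. The same pair made up positive regulation of peptidyl-threonine phosphorylation, 2 of 27 genes, with fold 18.8 per the authors' deposited table. Its unadjusted p of 0.0995 was the largest of the 37 listed terms, just inside the listing limit.

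Negative regulation of cell proliferation had more partners of BMP7 than the other 3 terms without HMGA2. It held TGFB1, EMP3, a membrane protein, EREG, which encodes epiregulin of the EGF family, and IGFBP7, an insulin-like growth factor binding protein. These and BMP7 were 5 of 396 background genes, with fold 3.21 (interval 1.06 to 7.12) and unadjusted p = 0.0672 per the authors' deposited table. BMP7 was thus in the term for restraint of proliferation and HMGA2 in that for cell cycle arrest, with TGFB1 in both.

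**Figure D2:**
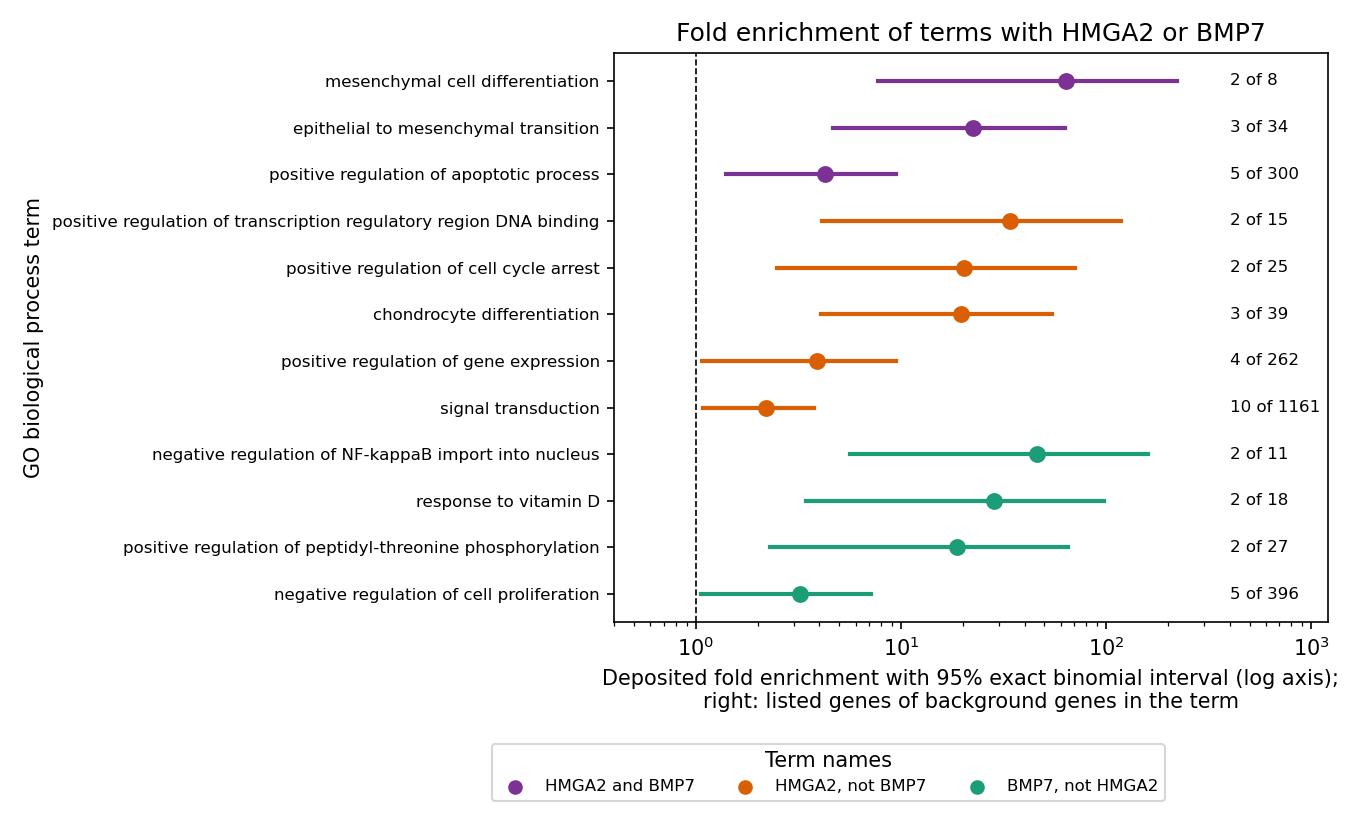
Deposited fold enrichment (points, log axis) of the 12 terms with HMGA2 or BMP7, with the 95% exact binomial interval (bars) and, at the right, listed genes of background genes. Folds run from 2.19 for signal transduction to 63.6 for mesenchymal cell differentiation, and the bars of the narrow terms span more than those of the broad ones.

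The intervals of the 12 folds all lay above 1, but terms are listed only where p is low, so this is no independent support. The intervals take the background share as fixed and do not match the deposited p. Positive regulation of peptidyl-threonine phosphorylation had an interval of 2.30 to 65.4, but an unadjusted p of 0.0995 in the authors' deposited table. The intervals cover the draw of listed genes and nothing of the spread between brains. Of the 12 terms, 6 rest on 2 listed genes and 2 on 3. From the folds in the authors' deposited table, the median was 19.96 for HMGA2 terms and 22.4 for BMP7 terms, beside 21.2 for all 37 terms. Among terms of at least 3 listed genes the median was 4.24 for HMGA2 and 4.24 for BMP7, so both medians depend on the terms of 2 genes. Each 4.24 is the fold of the shared apoptosis term. The like median over all listed terms was not computed.

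**Figure D3:**
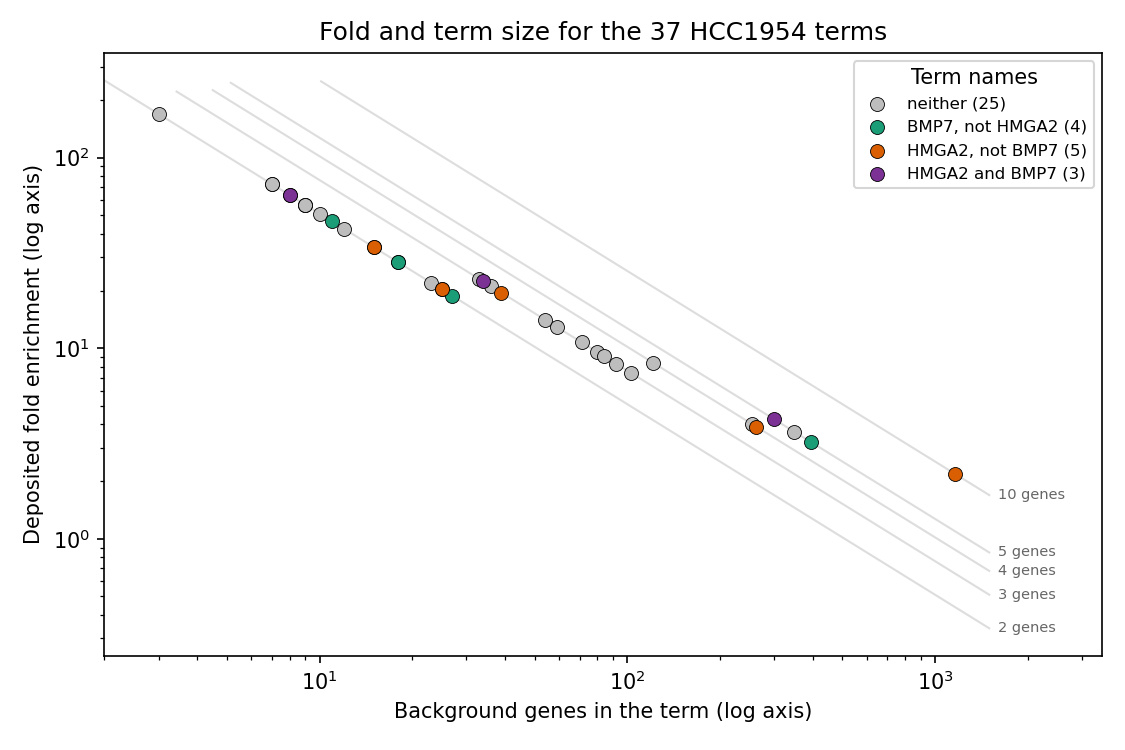
Deposited fold (vertical, log axis) against background genes in the term (horizontal, log axis) for the 37 HCC1954 terms, coloured by which member a term names, with grey lines joining terms of equal gene number. Some points lie on each other, and each point lies on the line of its gene number, from 2 genes to 10, so among terms with the same number of listed genes the fold depends on term size alone.

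At a given number of listed genes the deposited fold is fixed by the size of the term. The order of folds among the 6 terms of 2 genes is thus the order of their sizes, from 8 background genes in mesenchymal cell differentiation to 27 in positive regulation of peptidyl-threonine phosphorylation. Terms with HMGA2 or BMP7 had a median of 30.5 background genes, and the 25 terms with neither had 25.

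TGFB1 was the most frequent partner of both members. It stood in 6 of the 8 terms with HMGA2 (75%, exact binomial interval 34.9% to 96.8%) and in 5 of the 7 with BMP7 (71.4%, interval 29.04% to 96.3%). Across all 37 terms, these included, TGFB1 was in 21 (56.8%), and it was in 12 of the 25 with neither member (48%). The terms share genes and were chosen by name, so the intervals are descriptive and the difference was not tested. With TGFB1 taken out of the list and background, 8 of the 12 terms kept at least 2 genes, and the 3 shared terms were among them. The 3 terms that lacked TGFB1 were mesenchymal cell differentiation, signal transduction and negative regulation of NF-kappaB import into nucleus.

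HMGA2 had 14 partner genes and BMP7 had 8, each counting the other. Apart from the pair itself, 4 partners stood beside both: TGFB1, ANKRD1, APBB1 and CCN3. CCN3 met HMGA2 in chondrocyte differentiation and BMP7 in the NF-kappaB term, while ANKRD1 met both in the apoptosis term alone. A further 9 genes stood beside HMGA2 alone, among them AXL, GAS6 and PLAG1, and 3 beside BMP7 alone, EMP3, EREG and IGFBP7. The other 12 named genes never met either.

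Likeness of term sets was measured by the Jaccard index, the shared terms divided by the terms of either gene, over the 37 terms. The genes nearest to HMGA2 were TGFB1 (0.261), BMP7 (0.250) and APBB1 (0.200). Those nearest to BMP7 were HMGA2 (0.250), TGFB1 (0.217) and EMP3 (0.143), the last through its only term. For comparison, AXL and its ligand GAS6 shared 9 terms, with an index of 0.643. These values describe 1 list and were not tested.

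In the MDA231 table, HMGA2 and BMP7 were in 0 of 314 listed terms. None of their 16 partners was named there either. In 3 MDA231 terms the number of identifiers differed from the stated count. A gene left out of those terms would not be seen. The MDA231 list was far larger, with 3626 genes in a biological process, and its terms named 2646 genes, 15.8% of the background, beside 0.179% for HCC1954. A listed gene that falls in no listed term is not named, so the MDA231 list itself may still hold HMGA2 or BMP7. The difference between the lines was not tested.

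The MDA231 table did hold mesenchymal terms with other genes. Positive regulation of mesenchymal cell proliferation named 10 of 26 background genes, among them the BMP receptor gene BMPR1A, TGFBR2, FGFR1, WNT5A, CTNNB1 and MYC, with fold 1.78 (interval 0.855 to 3.27) and adjusted p = 0.960 per the authors' deposited table. Regulation of epithelial to mesenchymal transition named 6 of 12, CLASP1, CLASP2, DAG1, ELL3, MCRIP1 and POFUT2, with fold 2.32 (interval 0.850 to 5.03) and adjusted p = 0.965 per the authors' deposited table. These terms had 0 genes in common with each other and 0 with any HCC1954 term. Both lines thus had 2 listed terms with "mesenchymal" in the name, built from separate genes, and none of the 4 passed an adjusted p of 0.05.

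The wider BMP and HMGA2 pathways were then looked up by name. No listed term of either line had BMP, SMAD or transforming growth factor in its name. In the HCC1954 table BMP7 was the sole BMP or related GDF ligand of 14, HMGA2 the sole member of the HMGA family of 2, and TGFB1 the sole TGF-beta ligand or receptor of 6. HMGA2 and BMP7 were chosen after being seen in that table, so the counts of their lists could not be 0. The other HCC1954 counts were 0 of 7 BMP receptors, 0 of 14 BMP antagonists, 0 of 8 SMADs and 0 of 7 BMP target genes. EMT transcription factors (0 of 7), mesenchymal markers (0 of 8) and epithelial markers (0 of 10) were not named either. The mesenchymal terms of HCC1954 thus rest on HMGA2, BMP7 and TGFB1, with no SNAI, TWIST or ZEB factor and no vimentin, N-cadherin or fibronectin gene named. With 30 named genes in all (0.179% of the background), a count of 0 says little of any list. For MDA231 the counts were 0 of 7 EMT transcription factors, 2 of 8 mesenchymal markers (ACTA2 and COL1A1, 25%) and 6 of 10 epithelial markers (CDH1, OCLN, CLDN3, GRHL2, KRT8 and KRT18, 60%), beside 15.8% of all background genes.

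In the MDA231 table the named BMP genes were receptors, SMADs, target genes and an antagonist. It held 0 of 14 ligands but 3 of 7 receptors, ACVR1, BMPR1A and ACVR2A. Named SMADs were SMAD1, which BMP receptors phosphorylate, and SMAD4, the common partner, of 8. Named target genes were ID2, ID3, ID4 and MSX2, which encode transcriptional regulators, of 7, and the decoy receptor gene BAMBI was the single antagonist of 14. Over the 6 BMP, SMAD and HMGA lists, 10 of 52 genes were named (19.2%), near the 15.8% of all background genes, so the pooled count does not set these genes apart.

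In all, 22 MDA231 terms named a gene of these 6 lists. ACVR1 was in 6 and BMPR1A in 5, and both were in protein phosphorylation. It was the single term of these 22 with an adjusted p under 0.05. Of all 314 listed MDA231 terms 15 had one, against 1 of these 22 listed terms, so the 22 terms do not stand out. As a share of the 6488 tested terms, the 15 are 0.231%. ACVR1, BMPR1A, SMAD4 and MSX2 met in outflow tract septum morphogenesis, which had 10 of 23 background genes, fold 2.01 and adjusted p = 0.857 per the authors' deposited table. ID2, ID3, ID4, MSX2 and SMAD4 were all in negative regulation of transcription, DNA-templated, with fold 1.31 and adjusted p = 0.0909 per the authors' deposited table.

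Genes linked to HMGA2 were looked up next. The list of the let-7 axis and RNA-binding partners, with LIN28A, LIN28B, DICER1 and the IGF2BP genes, had 0 of 6 in both. Of 7 cell cycle genes linked to HMGA2, the cyclin-dependent kinase inhibitor genes CDKN2A and CDKN1A were named for MDA231, in 13 and 9 terms, and none for HCC1954. For MDA231 that is 28.6% of the cell cycle list and 15.4% of the 13 genes of both lists, beside 15.8% of all background genes.

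**Figure D4:**
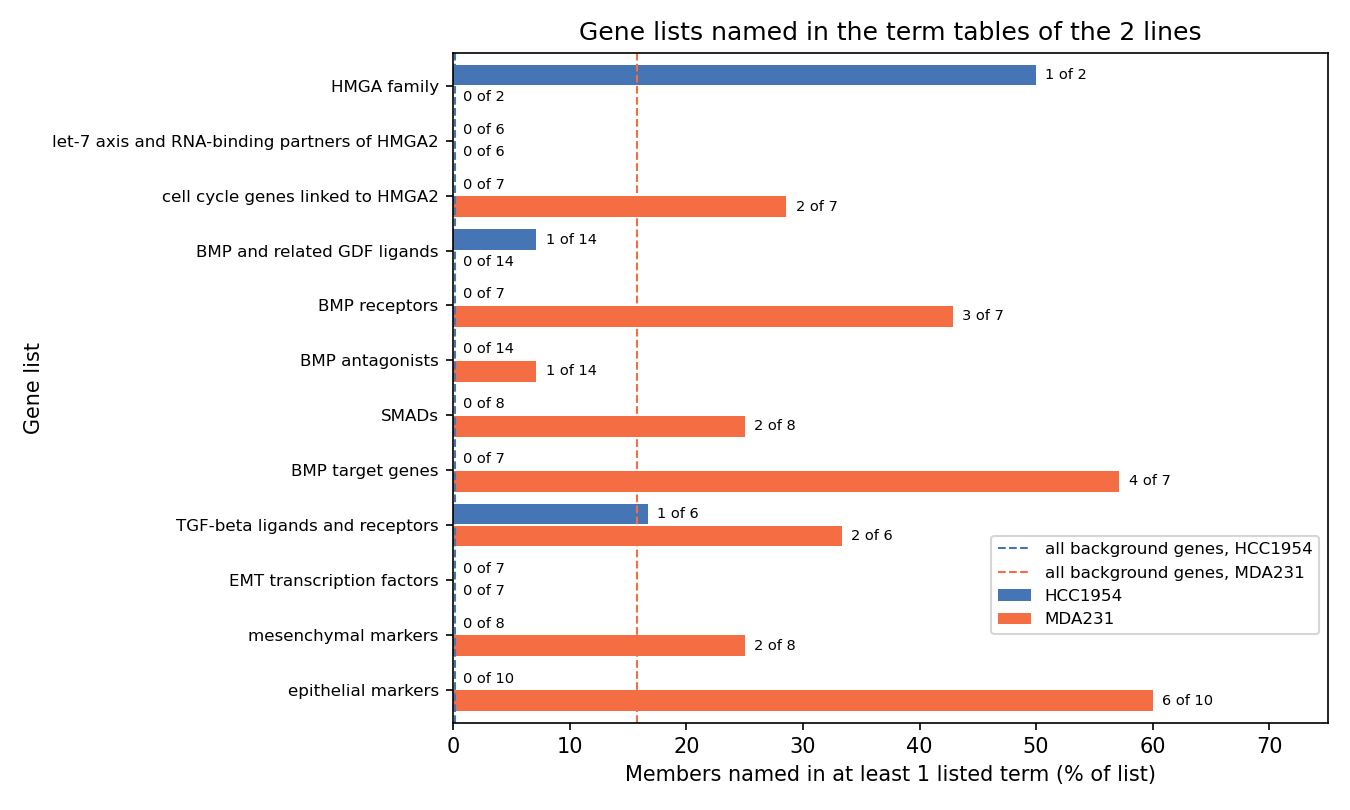
Percent of each gene list named in at least 1 listed term of the HCC1954 (blue) and MDA231 (orange) tables, with the number named beside each bar and dashed lines at 0.179% and 15.8% for all background genes. HMGA2 and BMP7 fill the blue bars of the HMGA family and of the ligands. Both were chosen after being seen in the HCC1954 table, so these bars could not be empty. The MDA231 bars of receptors (3 of 7) and target genes (4 of 7) are longer than that of the antagonists (1 of 14).

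Markers of the line and of the host brain were looked up in the same way. Of 5 breast carcinoma markers, 0 were named for HCC1954 and 4 for MDA231 (ERBB2, KRT8, KRT18 and CDH1), beside shares of 0.179% and 15.8% over all background genes. With so few genes named for HCC1954, the 0 says nothing of the identity of that line. The 4 named for MDA231 say nothing of its identity either, because naming in a term gives neither level nor direction. ERBB2, 1 of these 4, is the gene amplified in HCC1954. Astrocyte, microglia and oligodendrocyte markers were named in neither table (0 of 4 each), and MAP2 of the 4 neuron markers and PECAM1 of the 4 endothelial markers were named for MDA231. All the identifiers of both tables are human. Whether mouse transcripts of HMGA2 or BMP7 orthologues entered the counts was not tested.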

How the data were processed

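Per the labels' protocols, poly(A) RNA of mouse brains was immunoprecipitated with an anti-BrdU antibody and made into cDNA libraries; the submitters' processing notes name STAR, HTSeq, GRCh38 and GRCm38. No source used here names the enrichment tool or says how the listed genes were selected. Per the file headers, each deposited table gives for every term a percent of submitted genes, a fold enrichment, which is a ratio of the listed to the background share, and unadjusted, Bonferroni and Benjamini p-values ("adjusted p" is the Benjamini value). A deposited score column without a name and a deposited FDR percent were not used.

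No p-value was computed and no test was made. HMGA2, BMP7 and the gene lists were chosen with earlier results of these data known. Rows naming HMGA2 (ENSG00000149948) or BMP7 (ENSG00000101144) were taken by identifier. Symbols were found for 30 of 30 HCC1954 and 2643 of 2646 MDA231 genes. Intervals are 95% Clopper-Pearson (exact binomial) intervals of the listed share, divided by the background share, and cover counting error only. The number of tested terms was solved from the Benjamini values. Library depth is unknown here. Named genes were the members, their partners, the 3 nearest genes by Jaccard index and the list members named in either table; not all are printed. The remaining genes of the 2 MDA231 mesenchymal terms were named after their values were seen. Alternatives were an unadjusted p under 0.05, terms of at least 3 genes, collapse of terms at a Jaccard index of 0.5, TGFB1 left out, count and list lowered by 1 gene and, for MDA231, an adjusted p under 0.05. Leaving out HMGA2 or BMP7 was added after the data were examined. The readers and counts were tested on simulated data. Python 3.11.15, SciPy 1.17.1, NumPy 2.4.6 and GENCODE release 29 were used.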

Additional observations from a re-analysis of the deposited data

How the results depend on the processing

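Of 28 alternative values for 7 counts of terms or genes, 16 were within 1.5 times the count from the whole table. No paired analysis was possible because the tables hold no value per library. Counting only terms with an unadjusted p under 0.05 left 5 terms for HMGA2, 4 for BMP7, 6 for either and 5 partners of BMP7. Terms of at least 3 genes numbered 5 for HMGA2, 3 for BMP7 and 6 for either. TGFB1 was in 80% of those for HMGA2 and in 100% of those for BMP7. At an unadjusted p under 0.05 its share was 60% for HMGA2 and 50% for BMP7. With overlapping terms collapsed it was 66.7% for each gene. The like shares over all listed terms were not computed. Once overlapping terms were collapsed, 3 terms remained for HMGA2, 3 for BMP7, 5 for either and 1 for both. The median fold of HMGA2 terms, 19.96 in the deposited table, was 4.24 for terms of at least 3 genes, 3.88 after that collapse and 8.53 with TGFB1 left out. That of BMP7 terms, 22.4, was 4.24 for terms of at least 3 genes and 34.4 for an unadjusted p under 0.05, so neither median is stable. The fold of mesenchymal cell differentiation was 63.6, and 32.3 with its count and the list lowered by 1 gene. Among MDA231 terms with an adjusted p under 0.05, 2 of the 10 named BMP, SMAD and HMGA genes remained. The stricter MDA231 thresholds could not change the counts of 0 for HMGA2 and BMP7, and say nothing of their stability. The few listed genes per term limit every fold, and no value has a replicate error.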
